A study of Homo sapiens with 8 samples.

Results

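Runs of closely spaced shared peaks are short stretches of 1 chromosome strand in which 3 or more RBM45 CLIP peaks, each listed in both wild-type replicates, followed each other with gaps of at most 1000 bases. They were built from the deposited list of paired peaks, in which at least 50% of every replicate 1 peak was covered by a replicate 2 peak on the same strand. Each replicate 1 peak counted once per strand as an entry, and entries of 1 chromosome and strand were chained in order. In all, 31 replicate 2 peaks were paired with more than 1 entry, so a run can hold fewer replicate 2 peaks than entries. Of 13758 shared entries, 1684 lay in 457 runs, a share of 12.2% (95% exact Clopper-Pearson interval 11.7 to 12.8, which covers counting error only and treats entries as independent). A further 2390 entries formed 1195 stretches of 2, and 9684 entries stood alone. Runs were chosen by the measured positions of the peaks and by their presence in both lists, so their number, length and spacing are given as descriptions, with no test.

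RBM45 is an RNA-binding protein with RNA recognition motifs that can bind to itself, is made strongly in the developing brain, and is found in protein inclusions in amyotrophic lateral sclerosis. In CLIP (cross-linking and immunoprecipitation), ultraviolet light joins a protein to the RNA it touches, the protein is pulled down and the attached RNA fragments are sequenced. A peak is a place where such fragments pile up, and several peaks near each other on 1 strand can come from 1 transcript carrying the protein at several places or from different transcript molecules each carrying it once, which peak positions cannot separate.

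HEK293T, a human cell line that derives from embryonic kidney, carried FLAG-HA-tagged human RBM45 from a lentivirus in every group, and the cells received 300 mJ/cm2 of 254 nm ultraviolet light. The 8 samples form 4 groups of 2 replicates: CLIP with an antibody against the HA tag and size-matched input taken without antibody, each from wild-type (WT) cells and from cells with a knockout of METTL3, the enzyme that writes most m6A on messenger RNA. Only the 2 WT CLIP libraries are described here. The protein measured is the introduced, tagged one, and the labels name neither the promoter that drives it nor whether the replicates were separate cultures.

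The 2 lists differ in length, 210878 entries in replicate 1 and 65587 in replicate 2, a ratio of 3.22, and the reads behind each are unknown. Fold enrichment below is the authors' value for a peak, a ratio over the peak caller's background, and the −log10 p is the caller's unadjusted p value of that peak. The input libraries were not analysed here, so background RNA common to both CLIP libraries cannot be told apart from bound RNA, and neither can binding along an RNA from the abundance of that RNA. Positions refer to the hg19 build and count from 1. Strand is the one each list gives; the sources used here do not say how it was assigned to a peak, and the strand of a run, its 5′ to 3′ order and its upstream and downstream sides all follow it. Runs are named by position, since genes, exons, introns and sequences in this build were not analysed here.

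Most runs were short and small. A run of 3 peaks was the usual case, with 286 of the 457 runs, followed by 97 runs of 4, 38 of 5 and 20 of 6. Only 16 runs held 7 or more peaks, and the largest held 10. The median run spanned 1100 bases from the first base of its first peak to the last base of its last (interquartile range 757 to 1522, extremes 214 and 5570), and all 457 together covered 553.6 kb. Runs of 3 spanned a median of 904 bases, runs of 4 a median of 1334 and runs of 5 a median of 1731. Both strands carried runs, 243 on plus and 214 on minus. The plus strand held 51.8% of the entries in runs and 52.7% of the single entries.

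Within runs, the rule holds neighbouring peaks to gaps of at most 1000 bases. The 1227 gaps had a median of 316 bases (interquartile range 132 to 589), and the distance from one peak's start to the next had a median of 375 bases. A gap of 100 bases or less made up 17% of them, one of 200 or less 35.8% and one of 500 or less 66.7%. The smallest gap was 31 bases, which is also the smallest between any 2 neighbours in the whole replicate 1 list; in the replicate 2 list the smallest was 22. Shared peaks took up a median of 15.8% of a run's length, so most of a run lay between peaks. The gaps showed no break at 1000 bases. Over all neighbouring shared peaks they reached into megabases, a single shared peak lay a median of 10183 bases from the nearest other, and 143 gaps within the last 100 bases below the limit stood beside 125 within the first 100 bases above it. Peaks on either side of gaps just inside the limit had median folds of 4.16 in replicate 1 and 4.23 in replicate 2, and those just outside had 4.108 and 4.46. A limit of 900 bases gave 422 runs and one of 1100 gave 488. The limit of 1000 bases therefore falls within a continuous range of distances.

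**Figure D1:**
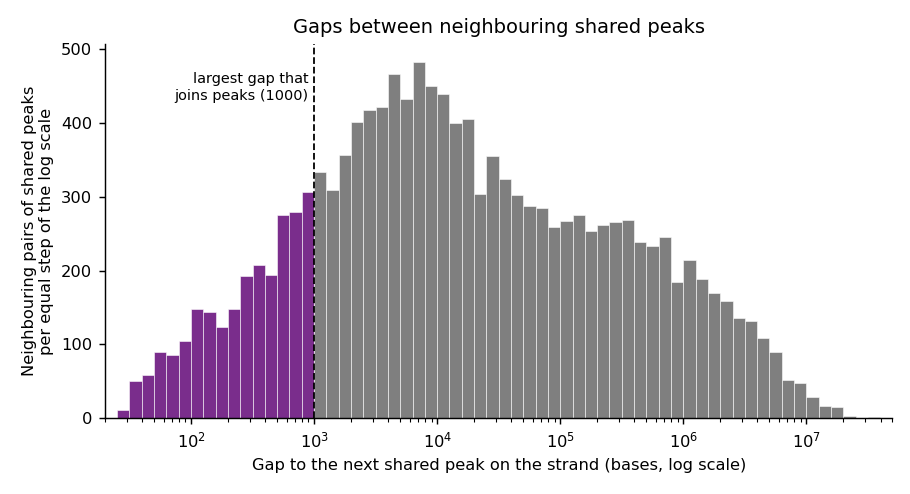
Number of neighbouring pairs of shared peaks (vertical axis) by the gap between them in bases (horizontal axis, log scale, equal steps of the log), all chromosomes and both strands. Purple bars lie within the limit of 1000 bases that joins peaks and grey bars beyond it; the steps widen in bases from left to right, so taller bars do not mean more gaps per base. In these steps the bars on either side of the limit hold 307 and 333 gaps.

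The 2 largest runs held 10 peaks each. The first, on the minus strand of chromosome 8 from 144672868 to 144675920, spanned 3053 bases with gaps of 67 to 599 bases. Read from its 5′ end, its peaks had fold enrichments of 3.85, 3.17, 4.58, 9.35, 4.95, 4.17, 4.08, 2.55, 5.89 and 2.83 in replicate 1. The replicate 2 values of the same 10 peaks were 4.17, 6.78, 3.40, 6.40, 3.84, 5.00, 2.90, 3.98, 1.97 and 4.89. The lists put the highest fold at different peaks, peak 4 in replicate 1 and peak 2 in replicate 2. Peak 4 was also the widest, 212 bases in replicate 1 and 206 bases in replicate 2, and its replicate 2 fold was next to the highest. Peak 9 was next to the highest in replicate 1 and lowest in replicate 2.

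The second run of 10, on the minus strand of chromosome 16 from 89783241 to 89786504, spanned 3264 bases. Its folds from 5′ to 3′ were 2.51, 5.46, 6.84, 4.56, 2.098, 3.30, 4.41, 3.77, 6.10 and 3.82 in replicate 1. In replicate 2 they were 4.57, 5.35, 18.3, 4.54, 4.30, 4.30, 6.68, 6.02, 7.61 and 2.74. Both lists had their highest fold at peak 3, 36 bases from 89785139 to 89785174, and their next highest at peak 9. Peaks 5 and 6 were paired with the same replicate 2 peak of 211 bases, so the 2 entries share 1 replicate 2 value, and 5 of the 10 peaks were also listed on the plus strand.

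On the plus strand of chromosome 19, a run of 9 peaks from 49605569 to 49608441 spanned 2873 bases and had the highest median fold of these 3 runs in replicate 1, 5.77, and the lowest in replicate 2, 3.74. Its replicate 1 folds from 5′ to 3′ were 13.3, 8.30, 3.95, 10.1, 5.34, 4.37, 10.6, 5.77 and 2.20. The replicate 2 folds were 7.502, 6.24, 3.202, 6.59, 3.05, 3.74, 10.9, 2.59 and 3.18. In both lists peaks 1, 2, 4 and 7 were the 4 highest, each above 6-fold, and the others lay below them. Peak 7, 116 bases from 49607295 to 49607410, passed 10-fold in both.

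**Figure D2:**
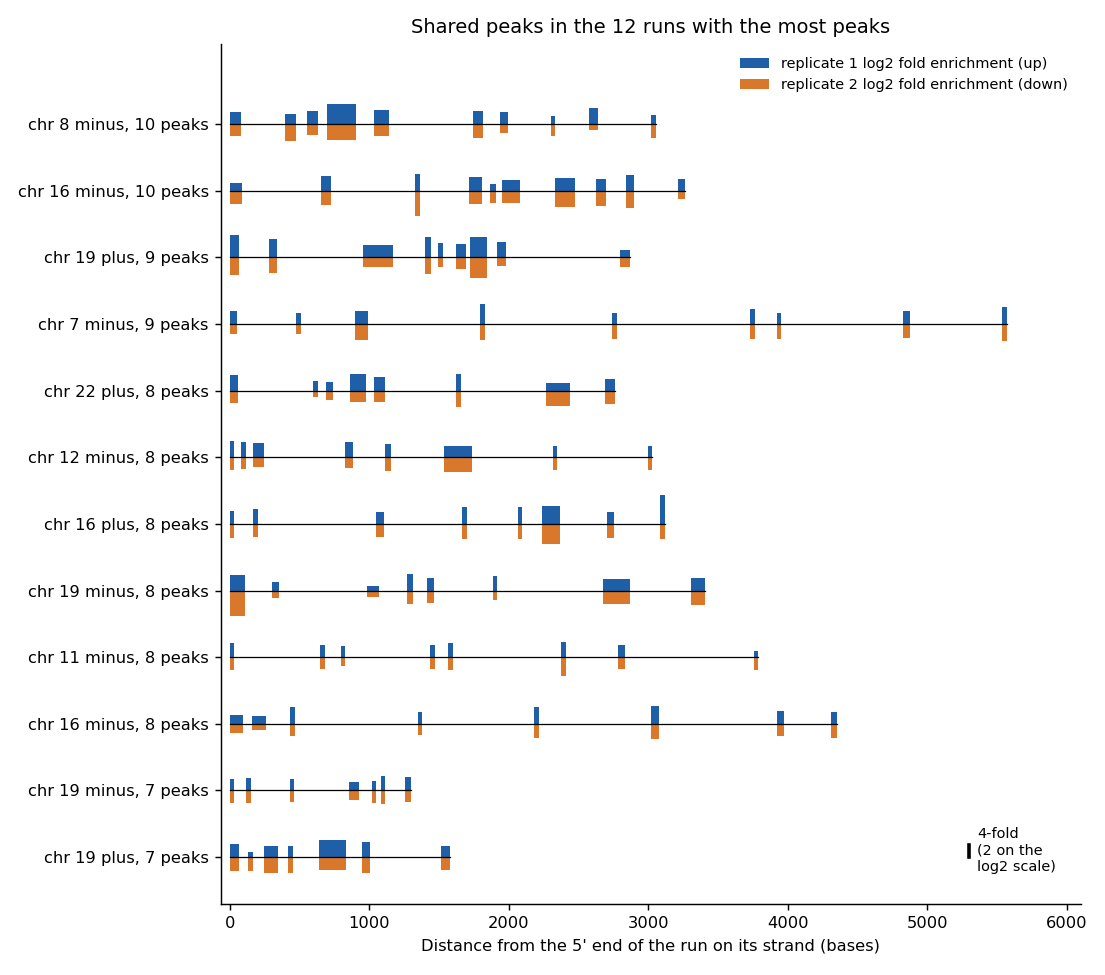
The 12 runs with the most peaks, 1 per line, drawn by distance in bases from the 5′ end of the run on its strand. Each shared peak is drawn at its replicate 1 width, with its log2 fold enrichment in replicate 1 upward and in replicate 2 downward; the run of 9 on chromosome 7 is the longest, 5570 bases, and the peaks cover a minor part of most runs.

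The other large runs differed in how widely their peaks were set. A run of 9 on the minus strand of chromosome 7, 5447217 to 5452786, had the longest span of all, 5570 bases, with a median gap of 730 bases. Its highest replicate 1 fold was 9.94, at peak 4, where replicate 2 had 6.47. The next longest were a run of 8 on the minus strand of chromosome 16, 89544422 to 89548772, of 4351 bases with a median gap of 803, and a run of 7 on the plus strand of chromosome 6, 158986197 to 158990499, of 4303 bases with a median gap of 755. At the other end, a run of 7 on the minus strand of chromosome 19, 47290047 to 47291344, fitted into 1298 bases. Its folds were even, 2.59 to 5.11 in replicate 1 and 3.11 to 4.81 in replicate 2. Peaks 1 and 2 of that run were paired with the same replicate 2 peak of 141 bases. A run of 7 on the plus strand of chromosome 19, 34882165 to 34883742, spanned 1578 bases, and its peaks covered 34.6% of that length.

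Runs of 8 stood at 6 places. On chromosome 22, plus strand, 20068461 to 20071222, the folds ran from 2.34 to 6.70 in replicate 1 and from 2.04 to 6.76 in replicate 2. Both lists had the highest value at peak 6, and peaks 4 and 5 were paired with the same replicate 2 peak of 252 bases. On chromosome 12, minus strand, 49442903 to 49445931, the replicate 1 folds were highest at the 5′ end, 6.40, and lowest at the 3′ end, 3.51. Replicate 2 did not show that order, with 4.35 at peak 1, 3.07 at peak 3 and 5.31 at peak 6. On chromosome 11, minus strand, 660138 to 663925, peak 6 was highest in both, 5.99 and 9.11, and the 8 peaks were narrow, with a median of 33 bases. In the run of 8 on chromosome 16 from 89544422, named above for its span, peak 6 was again highest in both lists, 7.67 and 5.50.

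The single highest folds in runs were each much lower in the other list. The replicate 1 maximum, 27.4, was the last of 8 peaks in a plus-strand run on chromosome 16, 89584041 to 89587158; the same peak had 5.82 in replicate 2, where peak 6 of that run was highest with 10.5. The replicate 2 maximum, 18.7, was the first of 8 peaks in a minus-strand run on chromosome 19, 1588324 to 1591732, where replicate 1 had 5.99. By −log10 p, both peaks were the highest of their runs in each list. The chromosome 16 peak had 91.2 in replicate 1 and 33.6 in replicate 2, and the chromosome 19 peak had 60.5 and 73.5. The tightest runs of at least 4 peaks were on chromosome 11, plus strand, 66395920 to 66396321 (4 peaks in 402 bases), chromosome 17, minus strand, 865349 to 865879 (4 in 531 bases) and chromosome 15, plus strand, 67469536 to 67470107 (4 in 572 bases). None of the peaks in these 3 runs was above 5-fold in both lists, a level that 13.9% of all shared entries passed. With so few peaks this does not set these runs apart.

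Run peaks were a little higher in fold than single shared peaks. The median fold of the 1684 run entries was 4.24 in replicate 1 (95% order-statistic interval of the median 4.14 to 4.35) and 4.41 in replicate 2 (4.31 to 4.55). Single shared peaks had medians of 4.07 (4.01 to 4.09) and 4.22 (4.17 to 4.23). The difference, 0.17 in replicate 1 and 0.19 in replicate 2, was small against the spread of single peaks, whose interquartile range was 3.12 to 5.32 in replicate 1. With 1 list per library there is no test of it, and the intervals treat peaks as independent, neighbours in a run included. Peaks above 5-fold in both lists made up 18.3% of run entries (308; interval 16.5 to 20.2), against 13.9% of all shared entries and 12.99% of single ones (12.3 to 13.7). In replicate 1 alone, 32.6% of run entries passed 5-fold, with 29.1% of all shared entries, and in replicate 2 alone 37.8%, with 31.8%. The fold did not rise with the size of the run. Runs of 3, of 4 and of 5 or more had medians of 4.34, 4.08 and 4.26 in replicate 1 and 4.50, 4.31 and 4.38 in replicate 2. Among 19 chromosomes with at least 20 run entries, the run median exceeded the single median on 15 in replicate 1, on 14 in replicate 2 and on 13 in both. The difference lay below 0 when only pairs with a −log10 p above the median in both lists were kept. The median fold of run peaks minus that of single peaks was then −0.52 in replicate 1 and −0.30 in replicate 2, from 95 runs. Taken from the ends of the intervals of both medians, the ranges were −0.86 to −0.12 and −0.65 to 0.037. They too treat peaks as independent and are no test of a difference from 0.

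Run peaks were also wider than single peaks and had higher −log10 p values. The median width was 40 bases in runs and 33 bases for single peaks in replicate 1, and 43 against 33 in replicate 2. Peaks of exactly 30 bases in replicate 1, the shortest listed, made up 17.9% of run entries (16.1 to 19.9) and 32.6% of single ones (31.6 to 33.5). Widths were larger in larger runs, up to a median of 45 bases in replicate 1 and 50.5 in replicate 2 for runs of 5 or more. The median −log10 p was 7.65 in runs and 5.98 in single peaks in replicate 1, and 7.14 and 5.47 in replicate 2. It too was highest in runs of 5 or more, 8.496 and 8.32. Since width differed, the comparison was repeated within classes of replicate 1 width. The replicate 2 values were placed in the same classes, so replicate 2 width was not held equal in them. Among peaks of 30 bases the median −log10 p was 5.77 in runs and 4.93 in single peaks in replicate 1, and 6.45 and 5.16 in replicate 2. Among peaks over 60 bases it was 8.31 and 5.95 in replicate 1 and 6.98 and 5.31 in replicate 2. In replicate 1 the p value therefore favoured runs at both ends of the width range. The replicate 2 values went the same way, without a match for replicate 2 width. Fold was compared in the same classes. Among peaks of 30 bases the median fold was 3.74 in runs and 3.72 in single peaks in replicate 1, and 4.40 and 4.13 in replicate 2. Among peaks over 60 bases it was 4.01 and 3.87 in replicate 1 and 4.15 and 3.98 in replicate 2. Peaks of 41 to 60 bases also had the higher median in runs in both lists. At 31 to 40 bases the lists differed in direction, with 4.66 in runs and 4.83 in single peaks in replicate 1 and 4.87 and 4.53 in replicate 2. A p value depends on the number of reads as well as on fold, and the part of RNA abundance in these values was not tested.

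**Figure D3:**
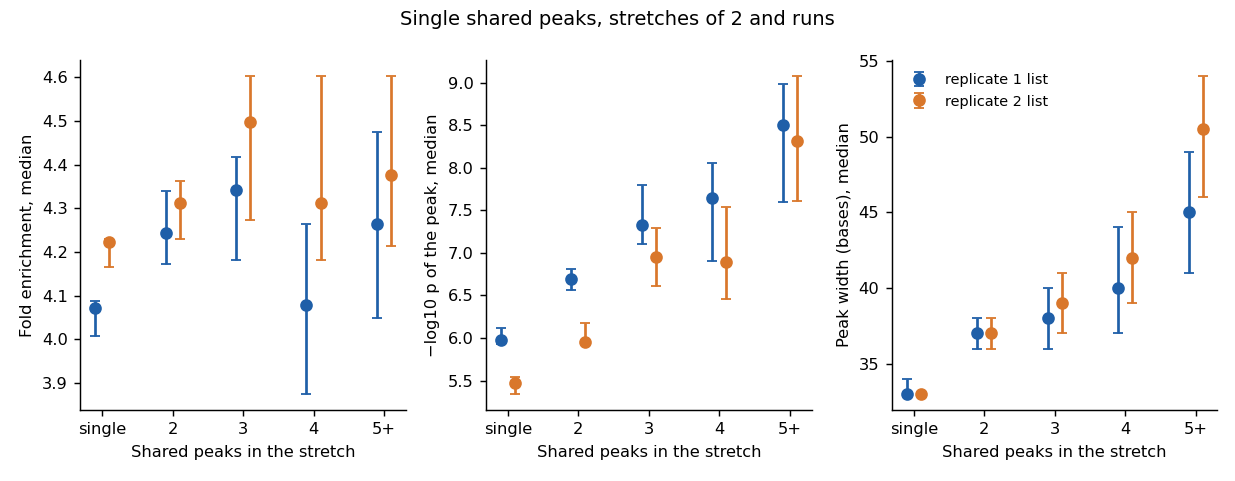
Median fold enrichment, −log10 p and width in bases (vertical axes) of single shared peaks, of peaks in stretches of 2 and in runs of 3, 4 and 5 or more (horizontal axis), blue for the replicate 1 list and orange for the replicate 2 list, with 95% order-statistic intervals of the median. Width and −log10 p are lowest in single peaks, 33 bases in both lists, while fold shows no rise from runs of 3 to runs of 5 or more.

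Folds differed among the peaks of a run. The highest fold of a run was a median of 1.97 times its lowest in replicate 1 and 1.92 times in replicate 2. In runs of 3 the ratios were 1.84 and 1.73. Such a ratio tends to widen with the number of peaks compared. It was not computed for sets of single peaks, so it is not shown to be a trait of runs. The same peak was the highest in both lists in 165 of 457 runs, or 36.1%. Where peaks tied for the highest fold, the one nearest the 5′ end was taken, here and in the places below. Some matches arise by coincidence, most often in the smallest runs, and the share to be had in that way was not computed. By size the matches were 111 of 286 runs of 3, 33 of 97 runs of 4, 11 of 38 runs of 5, 3 of 20 runs of 6, and 7 of the 16 larger runs. The highest peak had no fixed place. In the 286 runs of 3 it was peak 1, 2 and 3 from the 5′ end in 98, 97 and 91 runs in replicate 1 and in 94, 92 and 100 runs in replicate 2. Across run entries the Spearman correlation of the 2 folds was 0.345, and across single entries 0.316. These are correlations across peaks of the same pair of libraries, given as descriptions. The paired midpoints lay a median of 5.5 bases apart in runs and 4 bases apart for single peaks, and the SD of the log2 ratio of the 2 folds was 0.66 and 0.59. Above 5-fold in both lists were 18.3% of run entries and 13.9% of all shared entries. How many runs that share alone would leave with no such peak, or fill with them, was not computed. No peak passed 5-fold in both lists in 230 runs, and every peak passed it in 2 runs of 3. One was on chromosome 19, plus strand, 1439261 to 1439819, with median folds of 9.38 in replicate 1 and 6.09 in replicate 2. The other was on chromosome 16, plus strand, 2818130 to 2819241, with medians of 8.36 and 6.91.

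Above 10-fold in both lists were 10 run entries, 0.594% of them (0.285 to 1.09), against 0.342% of all shared entries, 47 peaks. They lay in 10 different runs, 6 of which were runs of 3, and 9 of the 10 were inner peaks with a shared neighbour on each side, as were 770 of all 1684 run entries. The highest by its lower fold was on chromosome 19, minus strand, 49311989 to 49312029, with 16.02 in replicate 1 and 15.5 in replicate 2, in a run of 5. Next came chromosome 9, plus strand, 131092703 to 131092755, with 17.3 and 12.4 in a run of 4, and chromosome 8, minus strand, 145667117 to 145667162, with 15.6 and 12.1 in a run of 3. The lowest of the 10, on chromosome 1, minus strand, 1491337 to 1491374, had 10.3 and 13.2.

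Peaks that were not shared lay between and beside the shared peaks of many runs, though not of all. Inside the run spans the replicate 1 list had 2193 entries, 3.96 per kb, of which 76.8% were the shared ones, and the replicate 2 list had 2001, 3.61 per kb, of which 83.2% were shared. Over the whole lists, 6.52% and 20.9% of entries were shared. The rule sets the span by shared peaks and so raises the first pair of shares. No further replicate 1 peak lay between the shared ones in 194 runs, and no further replicate 2 peak in 259. When every peak of the replicate 1 list was chained in the same way, the stretch around a run held a median of 8 peaks over 2586 bases and at most 49. In the replicate 2 list it held a median of 6 over 1751 bases and at most 25. The stretch of 49 surrounded the run of 8 on chromosome 16 from 89544422 and was 18051 bases long. Chained alone, 34.5% of the replicate 1 list and 23.4% of the replicate 2 list fell into runs. Both lists are longer than the shared set and include it, and unshared peaks were not chained by themselves. In replicate 1, where 6.52% of entries were shared, most entries of such runs were unshared. Many single shared peaks also had unshared company: 63.6% (62.6 to 64.5) had another replicate 1 entry within 1000 bases on the strand, and 38.9% (37.9 to 39.9) another replicate 2 entry.

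Beyond their edges, runs had more listed peaks nearby than single shared peaks did, in both lists and in each of the 7 steps of distance up to 50 kb. By construction no shared peak of the same strand lies within 1000 bases of either. Runs were chosen for close shared peaks and single peaks for their absence, so the 2 classes differ in local density by choice. Beyond 1000 bases the counts include shared peaks, those of other runs among them. Counted over both sides, the first 500 bases held 1.14 replicate 1 entries per kb beside runs and 0.691 beside single peaks, and in replicate 2 0.702 and 0.311. From 1 to 2 kb the replicate 1 values were 1.10 and 0.616 and the replicate 2 values 0.745 and 0.2996. From 5 to 10 kb they were 0.756 and 0.450 in replicate 1 and 0.484 and 0.220 in replicate 2, and from 20 to 50 kb 0.329 and 0.262 in replicate 1 and 0.164 and 0.114 in replicate 2. Near a run neither side was denser in both lists at every step: in the first 500 bases replicate 1 had 1.23 entries per kb upstream and 1.05 downstream, and replicate 2 had 0.713 and 0.691, while from 500 to 1000 bases replicate 2 had 0.481 upstream and 0.617 downstream. The downstream side was denser in both lists from 5 kb on, and by little from 1 to 2 kb. At 5 to 10 kb replicate 1 had 0.767 downstream and 0.746 upstream, and replicate 2 had 0.522 and 0.447. From 10 to 20 kb replicate 1 had 0.625 downstream and 0.492 upstream, and replicate 2 had 0.353 and 0.294. From 20 to 50 kb there were 0.378 replicate 1 entries per kb downstream and 0.279 upstream, and in replicate 2 0.187 and 0.140. Beside single peaks the values over the same distance were 0.274 and 0.250 in replicate 1, and 0.115 and 0.113 in replicate 2. At 10 to 20 kb single peaks had 0.377 downstream and 0.356 upstream in replicate 1, and 0.174 and 0.170 in replicate 2. Nearby runs share part of these stretches, and counts beside them are not independent.

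**Figure D4:**
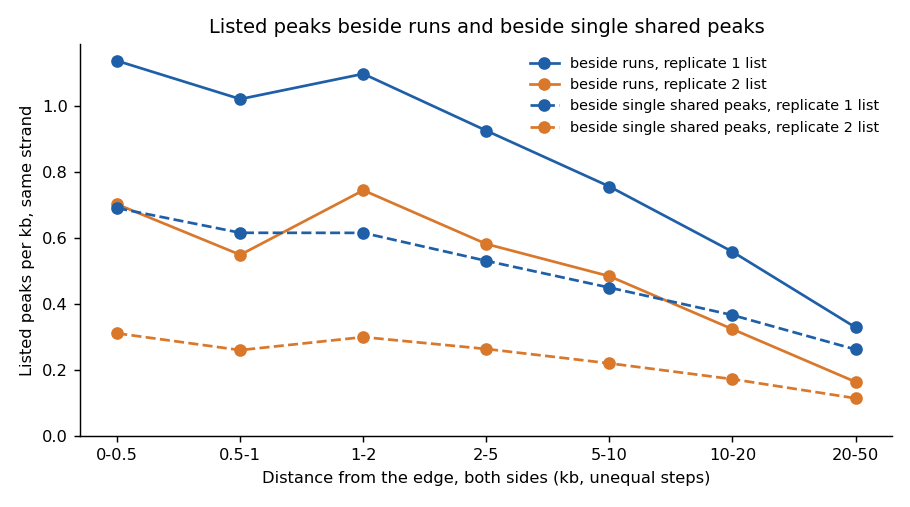
Listed peaks per kb on the same strand (vertical axis) by distance in kb from the edge of a run or of a single shared peak, both sides together (horizontal axis, unequal steps), solid lines beside runs and dashed lines beside single peaks, blue for the replicate 1 list and orange for the replicate 2 list. In each list the solid line lies above the dashed one, from 1.14 against 0.691 per kb in the first step to 0.329 against 0.262 in the last in replicate 1.

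The share of shared peaks in runs differed between chromosomes. The intervals given with it treat entries as independent, though run entries come in groups of 3 or more by the rule, so they are too narrow. Chromosome 21 had the highest share of its shared peaks in runs, 54 of 226 or 23.9% (18.5 to 30), and chromosomes 16, 19 and 8 followed with 19.4% (16.9 to 22.0), 18.0% (15.9 to 20.1) and 17.6% (13.8 to 21.9). Chromosome 13 had the lowest share of those with runs, 3 of 187 or 1.604% (0.332 to 4.62), a single run. Chromosomes 15, 4, 2 and 10 had 4.38%, 4.66%, 5.51% and 5.81%. By number, chromosome 19 carried 235 run entries in 62 runs, chromosome 17 carried 205 in 61, and chromosome 16 carried 182 in 45. The single shared entry of chromosome Y was in no run. On some chromosomes a few places decided the share: of the 54 run entries of chromosome 21, 19 lay on the minus strand from 44479375 to 44495814 and 16 on the minus strand from 44263550 to 44287188. On chromosome 8, 21 of 64 lay on the minus strand from 144665638 to 144679181.

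**Figure D5:**
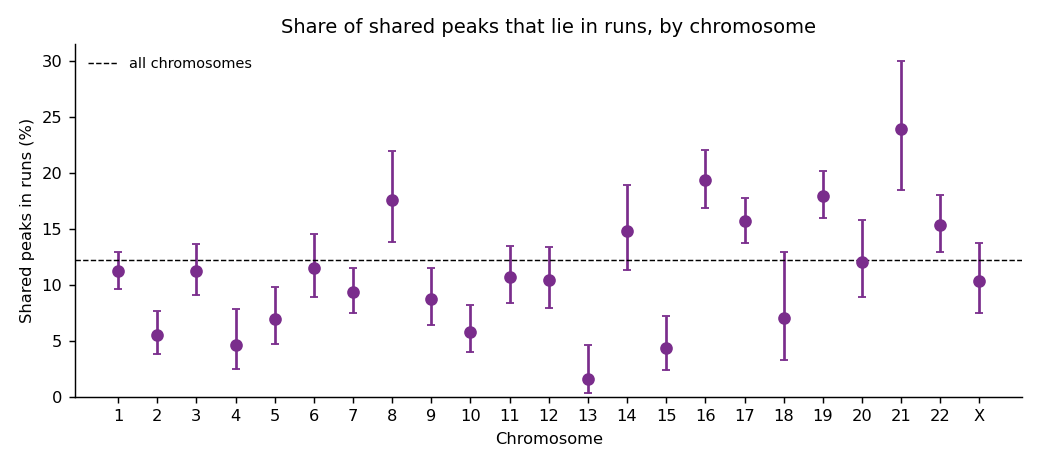
Percent of shared peaks that lie in runs (vertical axis) for each chromosome with at least 20 shared peaks (horizontal axis). Points are shares and bars are 95% exact binomial intervals, which treat entries as independent. The dashed line is the share over all chromosomes, 12.2%. Chromosome 21 is highest at 23.9% and chromosome 13 lowest at 1.604%.

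Runs themselves gathered at some loci. Joining runs of 1 strand that lay within 20 kb of each other gave 354 loci, of which 289 held 1 run, 41 held 2 and 24 held 3 or more, the last with 339 run entries. The locus with the most was on the plus strand of chromosome 19, 34873186 to 34893055, where 4 runs held 22 of 27 shared peaks within 19.9 kb, among 52 replicate 1 and 39 replicate 2 entries. The locus on chromosome 8 around the run of 10 held 21 of 22 shared peaks in 3 runs over 13.5 kb. On chromosome 16, minus strand, 87765440 to 87778354, all 18 shared peaks lay in 4 runs within 12.9 kb. Other loci were looser. On chromosome 6, plus strand, 20410859 to 20451194, 5 runs held 16 of 25 shared peaks over 40.3 kb, and on chromosome 22, minus strand, 41645751 to 41681989, 5 runs held 18 of 21 over 36.2 kb. Density over a wider window was not the same as close spacing. In the 100-kb window with the most shared peaks, chromosome 16, 89400001 to 89500000, minus strand, 15 of 43 shared peaks were in 4 runs and 18 stood alone. On chromosome 19, plus strand, 19500001 to 19600000, 6 of 27 were in runs, while on chromosome 8, minus strand, 144600001 to 144700000, 21 of 26 were.

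Some runs were listed on both strands. All 235 shared positions listed on both strands had the same fold on each strand in both lists, so the strands cannot be told apart there. Such entries made up 2.79% of run entries (47) and 3.36% of single ones, and the 1684 run entries were 1662 distinct positions. Overlapping runs on the 2 strands occurred at 6 loci with 12 runs and 49 entries. The largest was the run of 10 on chromosome 16 described above, 5 of whose peaks were also listed as a plus-strand run from 89783241 to 89784551. A run of 4 at chromosome 16, 89780658 to 89781991, and a run of 4 at chromosome 3, 99546769 to 99547658, were listed in full on both strands. Leaving out every position listed on both strands left 444 runs.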

How the data were processed

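The sources are 2 peak lists, 1 per WT CLIP library, and a list of their overlapping pairs. The submitters' processing notes name MACS2 2.1.1.20160309, Novoalign 3.09.00, HOMER 4.11.1, bedtools 2.25.0 and the hg19 build, among others, with no role for any. Per peak, the deposited files give a score, which follows the −log10 p and was not used further, a fold enrichment (ratio) and an unadjusted −log10 p. The sources used here do not say what served as the caller's control. The deposited count table was not used: its 8 count columns match no sample label, so the planned count tests were not run. Repeated rows were collapsed by position and strand. The gap was the next start minus the previous end. Runs named were the 12 with the most peaks (ties by span), the 3 of at least 4 peaks with the smallest span per peak, the 3 longest, and those with the highest fold in either list; strong peaks, loci within 20 kb, width classes and surroundings were chosen after their values were seen. Members and lists were chosen with earlier results of these data known. The chaining was tested on simulated lists, and bedtools 2.31.1 merge gave the same 457 runs and 1684 entries. Values were computed with scipy 1.17.1, pandas 2.3.3 and numpy 2.4.6 under Python 3.11.15 and plotted with matplotlib 3.10.9. The alternatives were other gaps, run sizes, overlaps and strengths, strand ignored, replicate 2 peaks chained and either list alone; leaving out positions listed on both strands was added later.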

Additional observations from a re-analysis of the deposited data

How the results depend on the processing

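Apart from the following, the settings that chained only shared peaks gave 390 to 685 runs, against 457 as reported. The number was 237 with gaps of at most 500 bases, 171 for runs of 4 or more and 828 when 1 shared base sufficed. In the pairs with a −log10 p above the median in both lists it was 95. The share of shared peaks in runs, 12.2%, was under these settings 5.95%, 6.004%, 17.5% and 7.72%, and 20.3% with gaps of at most 2000 bases and 10.8% with 50% of both peaks required. The median gap, 316 bases, was 178 and 526 at those 2 limits, which bound it by construction, and 268.5 in the stronger pairs. There the fold difference between run and single peaks was −0.52 in replicate 1 and −0.30 in replicate 2; the cause was not tested. In the other 18 fold comparisons the difference was above 0. With gaps of at most 500 bases and for runs of 4 or more, its interval reached 0 or below in both lists. Such an interval treats peaks as independent and is no test. Each list chained alone gave 3738 runs without replicate 1 and 15737 without replicate 2, shares of 23.4% and 34.5%, median gaps of 328 and 324 bases and fold differences of 0.27 and 0.29; these lists hold unshared peaks. Of 53 recomputed values, 34 lay inside the interval around the reported value or, for numbers of runs, were within 1.5 times it. Of the rest, 18 lay outside those bounds, and 1 was a fold difference whose whole interval lay below 0. Leaving out positions listed on both strands was chosen after seeing the data. No paired analysis was possible because no count column could be matched to a sample; for the same reason the planned normalization, filter and block alternatives were not run. Reads per library are unknown, so the depth behind single peaks is unknown.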
